A study of Zea mays with 6 samples.

Results

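The most abundant transcripts of the wild type maize leaf were 118 genes, of 44303 listed, that reached at least 1000 TPM (a length-corrected share of a library's transcripts) in each of 3 wild type libraries. They were chosen by these wild type values, so their high wild type level is a description and not a finding. They were also the 118 genes with the highest mean wild type TPM, and each is called here by its rank in that mean. The libraries were made from apl mutant seedlings in the Zheng58 background (3 libraries) and from Zheng58 seedlings, the wild type (3 libraries). Zheng58 is a maize inbred line, and all 6 libraries came from the second leaves of greenhouse plants taken 10 days after germination. The labels give neither the apl allele nor how it arose, and do not state which plants, single or pooled, stood behind each library. The p-values therefore reflect library-to-library spread that may be technical. The comparison asks how large a part of each library these transcripts took, in what order, and which of them held, fell or rose in each apl library.

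A leaf's mRNA is uneven, with a small number of genes giving a large part of all transcripts. In maize, which fixes carbon by the C4 pathway, mesophyll and bundle sheath cells divide the steps of photosynthesis between them. Nuclear genes for light-harvesting proteins, the small subunit of Rubisco and enzymes of the C4 cycle are known to be among the strongest expressed in such leaves. Which of the 118 genes encode these proteins is not reported here, because 0 of the 44303 identifiers was found in the table of 49888 maize genes that was searched. For the same reason the leaf identity of the libraries was not checked against marker genes, no sequence is shown, and roles are given for no member.

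Expression was deposited in TPM, a share of each library's transcripts corrected for transcript length. Levels of different genes can therefore be compared, but no read number, and so no depth, is known for any library. Because TPM is a share, a change in a gene that takes several percent of a library moves the values of all others. In bulk tissue, fewer cells of a type and less RNA per cell cannot be told apart. The apl libraries did not form one group. Over the 118 genes, the rank orders of apl replicates 1 and 3 had a Spearman rho of 0.984. For replicate 2 rho was 0.850 with replicate 1, 0.843 with replicate 3, and 0.912 to 0.944 with wild type libraries. Between wild type libraries rho was 0.957 to 0.992. These coefficients describe 118 genes that share libraries and are given without a p. Results are given with and without apl replicate 2. It was left out because its values were already known to stand apart, so results without it describe apl replicates 1 and 3 alone.

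The 118 genes took between 34.4% and 40.3% of the listed TPM of every library, although they are a very small part of the genes listed. Their share was 35.8%, 40.3% and 34.4% in apl replicates 1, 2 and 3, and 37.2%, 36.8% and 38.1% in wild type replicates 1, 2 and 3. The lowest and the highest share were both in apl libraries, and the wild type values lay between apl replicates 1 and 2. The means were 36.8% ± 3.06 in apl and 37.4% ± 0.676 in wild type (SD, n = 3 each), a difference of -0.56 percentage points. This difference was smaller than the SD of the wild type libraries. Without apl replicate 2 it was -2.28 points, with both remaining apl libraries below all wild type libraries. Without apl replicate 3 it was 0.66 points, with the opposite sign.

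**Figure D1:**
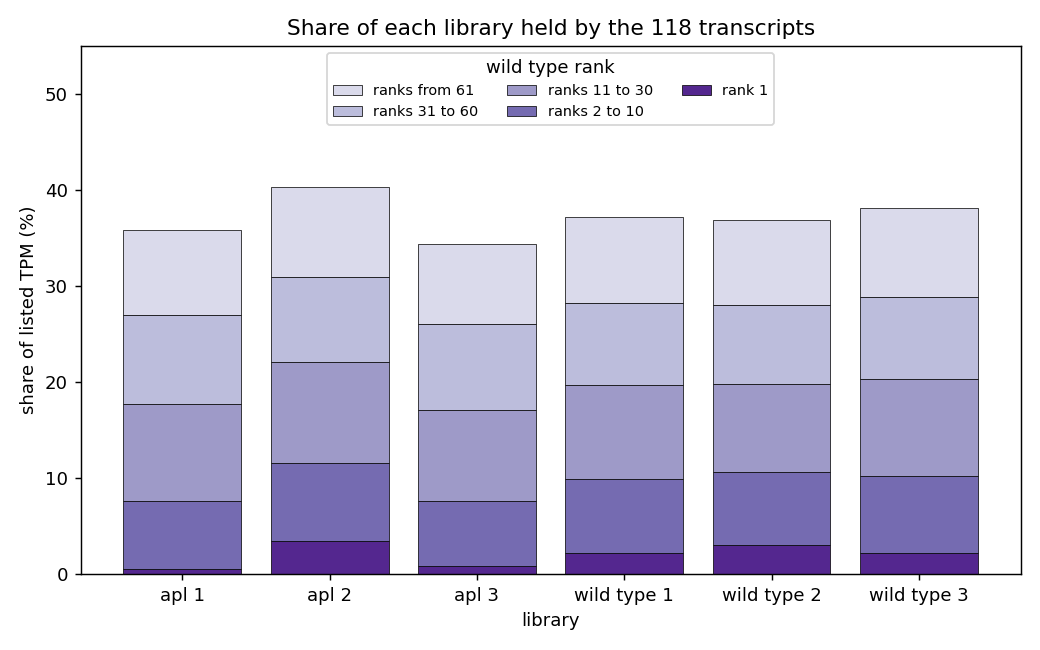
Share of the listed TPM (y axis, percent) held by the 118 transcripts in each of the 6 libraries (x axis), stacked by wild type rank. The stacks reach 34.4% to 40.3%, and the lowest block, the gene ranked 1, is thinnest in apl replicates 1 and 3.

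The gene ranked 1 alone took 0.578%, 3.45% and 0.815% of the listed TPM in apl replicates 1, 2 and 3, and 2.23%, 3.06% and 2.24% in the wild type libraries. Ranks 1 to 10 together held 7.67%, 11.6% and 7.60% in apl replicates 1, 2 and 3, and 9.95%, 10.7% and 10.3% in wild type replicates 1, 2 and 3. Apl replicates 1 and 3 were thus below all wild type libraries and replicate 2 above them, with means of 8.94% ± 2.26 in apl and 10.3% ± 0.354 in wild type (SD, n = 3 each). Ranks 11 to 118 held 28.2%, 28.7% and 26.8% in the apl libraries, against 27.2%, 26.2% and 27.9% in the wild type libraries. Over these 108 genes apl replicates 1 and 2 were above all wild type libraries and replicate 3 was inside their range. The groups overlapped, with means of 27.9% ± 0.985 in apl and 27.1% ± 0.855 in wild type (SD, n = 3 each). With the gene ranked 1 left out, the difference over the other 117 genes was 0.34 points with all 6 libraries and -0.46 points without apl replicate 2. The difference over the list also varied with how members were chosen. Genes averaging 1000 TPM or more across the 6 libraries again numbered 118, shared 109 with the first choice, and held 0.88 points more in apl than in wild type. That rule also uses the apl values, which lets in genes that are high in apl and favours a higher apl share.

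Each apl library held gains and losses within the list. In apl replicate 1, 50 members were above their wild type mean by a summed 56366 TPM and 68 were below theirs by a summed 72259 TPM, both sums well over the net change of -15893 TPM. In apl replicate 3, 41 members gained 40814 TPM and 77 lost 77588 TPM, a net change of -36774 TPM. The gene ranked 1 made up 25.5% of the loss in apl replicate 1 and 21.1% in apl replicate 3. In apl replicate 2 the balance went the other way, with 67 members above by 39254 TPM and 51 below by 14850 TPM, a net change of 24404 TPM.

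The whole expression profile was spread over more genes in apl replicates 1 and 3 than in replicate 2. To reach 50% of the listed TPM took the 332, 256 and 370 most abundant genes of apl replicates 1, 2 and 3, and the 321, 328 and 295 most abundant genes of the wild type libraries. Of the 118 members, 94, 110 and 93 were still among the top 118 genes of apl replicates 1, 2 and 3. In the wild type libraries 114 to 116 were, a count made high in advance because these libraries chose the members. A member moved a median of 14, 6 and 15 places from its wild type rank in apl replicates 1, 2 and 3, and 1 to 3 places in the wild type libraries, whose own values set that rank. The largest drops were 145, 117 and 151 places and the largest climbs 50, 44 and 50 places in apl replicates 1, 2 and 3.

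**Figure D2:**
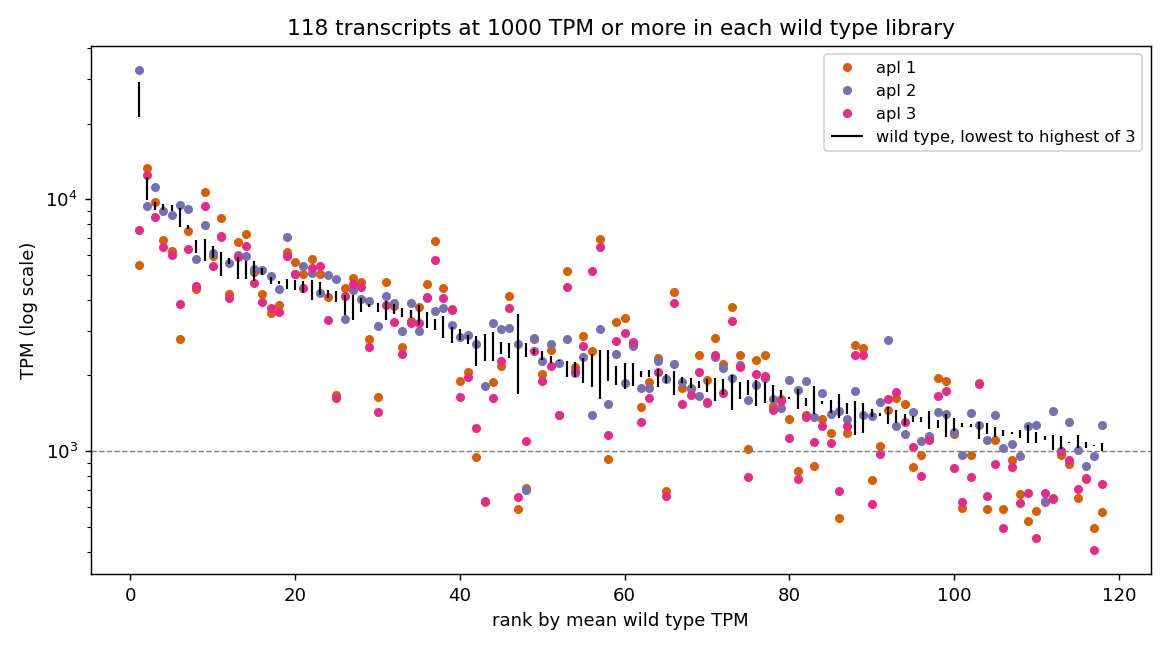
TPM (y axis, log scale) of the 118 transcripts by rank of mean wild type TPM (x axis). Dots are the 3 apl libraries, each black line spans the 3 wild type libraries, and the dashed line marks 1000 TPM. Dots of apl replicates 1 and 3 lie far below the black line at ranks 1, 43 and 47 and far above it at ranks 53 and 57, while those of apl replicate 2 mostly lie near it.

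Wild type values ran from 1005 TPM up to 29175 TPM within the list, and 38 members had a wild type mean above 3000 TPM. At the edge of the rule, the members ranked 118, 112 and 113 had lowest wild type values of 1005, 1012 and 1020 TPM. The nearest genes left out had 990, 977 and 977 TPM. Replicate spread was smaller in wild type, where the median coefficient of variation over members was 5.98%, against 16.1% in apl. Over the 20411 tested genes, which average 1 TPM or more, the medians were 23.3% in apl and 10.4% in wild type, so the wider spread in apl was general. The coefficient stayed under 10% for 29 members in apl and 92 in wild type, where 17.4% and 48.1% of tested genes did. It passed 20% for 49 members in apl and for 2 in wild type, those ranked 47 and 57, where 56.4% and 24.4% of tested genes did.

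Set against the range of the 3 wild type libraries, most members lay outside it in every apl library, and the direction differed between libraries. In apl replicate 1, 45 of 118 were above all wild type libraries and 64 below all of them. The same held for 43.5% and 36.2% of the tested genes. In apl replicate 3, 37 members were above and 72 below, where 47.2% and 33.9% of tested genes were. In apl replicate 2, 55 were above and 40 below, where 28.2% and 39.4% of tested genes were. Among the 1091 genes of the next tier, with at least 100 but not 1000 TPM in each wild type library, 273, 227 and 292 were above and 711, 603 and 690 below in apl replicates 1, 2 and 3. As deposited, the members thus lay below the range more often than tested genes in replicates 1 and 3. Choice on high wild type values favours that direction. They lay above it more often in replicate 2, but this depended on scaling. After quantile normalization 42 of 118 members and 7299 of 20411 tested genes were above in replicate 2, so the excess was gone. After median-of-ratios rescaling these were 58 members and 6566 tested genes, and the excess stayed. These shares were not tested against each other.

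**Figure D3:**
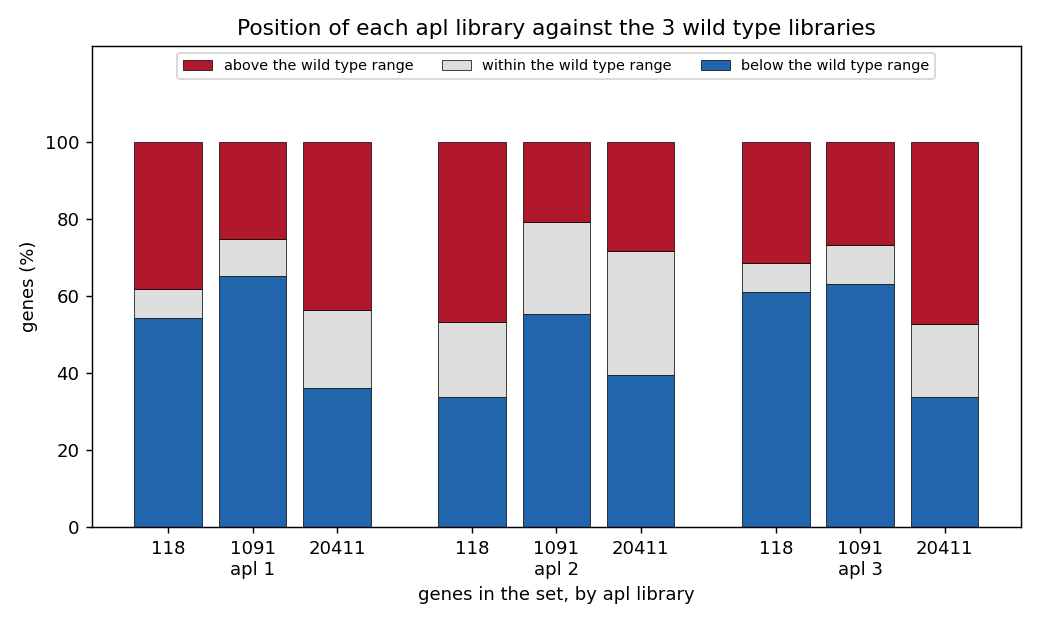
Percent of genes (y axis) above, within and below the range of the 3 wild type libraries in apl replicates 1, 2 and 3 (x axis), for the 118 members, the 1091 genes of the next tier and all 20411 tested genes. In apl replicate 2, 46.6% of members and 20.8% of the next tier were above.

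Larger distances were kept mostly to apl replicates 1 and 3. More than 1.5-fold above the wild type mean were 14, 2 and 9 members in apl replicates 1, 2 and 3, where 23.9%, 8.26% and 26% of tested genes were. More than 1.5-fold below it were 29, 3 and 31 members, where 15.2%, 14.6% and 15.5% of tested genes were. More than 2-fold below were 15, 1 and 17 members, where 7.2%, 8.31% and 7.55% of tested genes were. In the next tier 9.35%, 2.02% and 8.89% were more than 1.5-fold above and 31.6%, 8.34% and 31.7% more than 1.5-fold below. There, 13.5%, 3.12% and 14.6% were more than 2-fold below. The larger falls in replicates 1 and 3 were thus no more frequent among members than in the next tier. Over the 118 members the median log2 ratio to wild type was -0.11, 0.07 and -0.21 in apl replicates 1, 2 and 3, against 0.05, -0.05 and 0.10 over all tested genes. For the next tier the medians were -0.31, -0.11 and -0.30. As deposited, the sign of the members' median was opposite to that of all tested genes in each apl library. TPM is a share, so a net loss in members raises the values of other genes, and the reverse. Opposite signs were therefore favoured in advance. In the fit of all 6 libraries the median log2 change of all tested genes was 0.04 as deposited. It was -0.01 after median-of-ratios rescaling and -0.04 after quantile normalization.

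Put together by library, the 118 members showed a few patterns. Above wild type in all 3 apl libraries were 24 members, where 12.7% of tested genes were, and below in all 3 were 31, where 14.6% of tested genes were. In 21 members apl replicates 1 and 3 were below all wild type libraries while replicate 2 was above them, a pattern of 5.44% of tested genes. The reverse, above in replicates 1 and 3 and below in replicate 2, was seen in 4 members and in 12.1% of tested genes. Another 12 were below and 8 above in replicates 1 and 3 with replicate 2 inside the range, patterns of 6.79% and 11.2% of tested genes. In the remaining 18 members replicates 1 and 3 were not on one side, as in 37.2% of tested genes. By rank, 7 members of ranks 11 to 30 were above in all 3 apl libraries and 2 below. In ranks 31 to 60 these were 9 and 6, and in ranks 61 to 118 they were 7 and 20. Of the 1091 genes of the next tier, 42 were above and 350 below in all 3. Wild type values set the ranks as well as the ranges, so nothing is read from this order. After median-of-ratios rescaling 21 members were above and 21 below in all 3 apl libraries, where 12% and 15.1% of tested genes were. After quantile normalization these were 19 and 31 members, and 10.8% and 14.1% of tested genes.

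In the fit of all 6 libraries, 2 of the 118 members passed the threshold (limma on log2(TPM + 1), Benjamini-Hochberg adjusted p under 0.05 over all tested genes), 0 of them higher and 2 lower in apl. Of all tested genes 1.41% passed, 0.661% higher and 0.745% lower. At an unadjusted p under 0.05 there were 34 members, where 19.3% of tested genes were. Apl replicate 2 was left out because of its values, and the apl libraries that remain resemble each other closely. The p-values of fits without it are therefore likely too small, and rises and falls named from them describe those libraries. Without apl replicate 2, 73 members passed, 22 higher and 51 lower. Of the 20511 genes tested in that fit 34.8% passed, 20.2% higher and 14.6% lower. Median-of-ratios rescaling of those 5 libraries gave 11 members higher and 53 lower, where 16.6% of tested genes were higher and 18.6% lower. Quantile normalization gave 23 members higher and 50 lower, where 14.9% of tested genes were higher and 19.6% lower. Over all tested genes higher calls thus outnumbered lower ones as deposited and were outnumbered by them after both rescalings. The median log2 change of all tested genes was -0.01 and -0.07 under them, against 0.08 as deposited. In the next tier 686 of 1091 passed without apl replicate 2, 159 higher and 527 lower. Because the wild type values chose the members and also enter the difference, these counts describe the list and nothing is read from their tilt to lower values. Among ranks 11 to 118 alone, 21 rose and 46 fell without apl replicate 2.

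The 2 members that fell with all 6 libraries were those ranked 48 and 111, and in both apl replicate 2 lay close to apl replicate 1. Zm00001eb335880, ranked 48, had 718, 700.0 and 1103 TPM in apl replicates 1, 2 and 3, and 2679, 2358 and 2466 TPM in wild type replicates 1, 2 and 3. The highest apl library was well under the lowest wild type library, so the groups were far apart. The log2 change came to -1.60 ± 0.21 (SE, limma adjusted p = 0.0235), and in apl replicate 2 it stood at place 165 of all genes. The gene ranked 111 had 630.0, 634 and 684 TPM in the apl libraries and 1113, 1153 and 1145 TPM in the wild type libraries. Its spread was the smaller of the pair, with 649 ± 29.9 TPM in apl and 1137 ± 21.1 TPM in wild type (SD, n = 3 each). The fitted log2 change was -0.81 ± 0.11 (SE, limma adjusted p = 0.0263). Both calls were lost without apl replicate 1 or without any wild type library (adjusted p 0.0977 to 0.154 for rank 48 and 0.105 to 0.194 for rank 111). Without apl replicate 3 rank 111 also missed the threshold (adjusted p = 0.0705), and with no filter on low values both did (0.0645 and 0.0900). Both fell without apl replicate 2 as well.

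**Figure D4:**
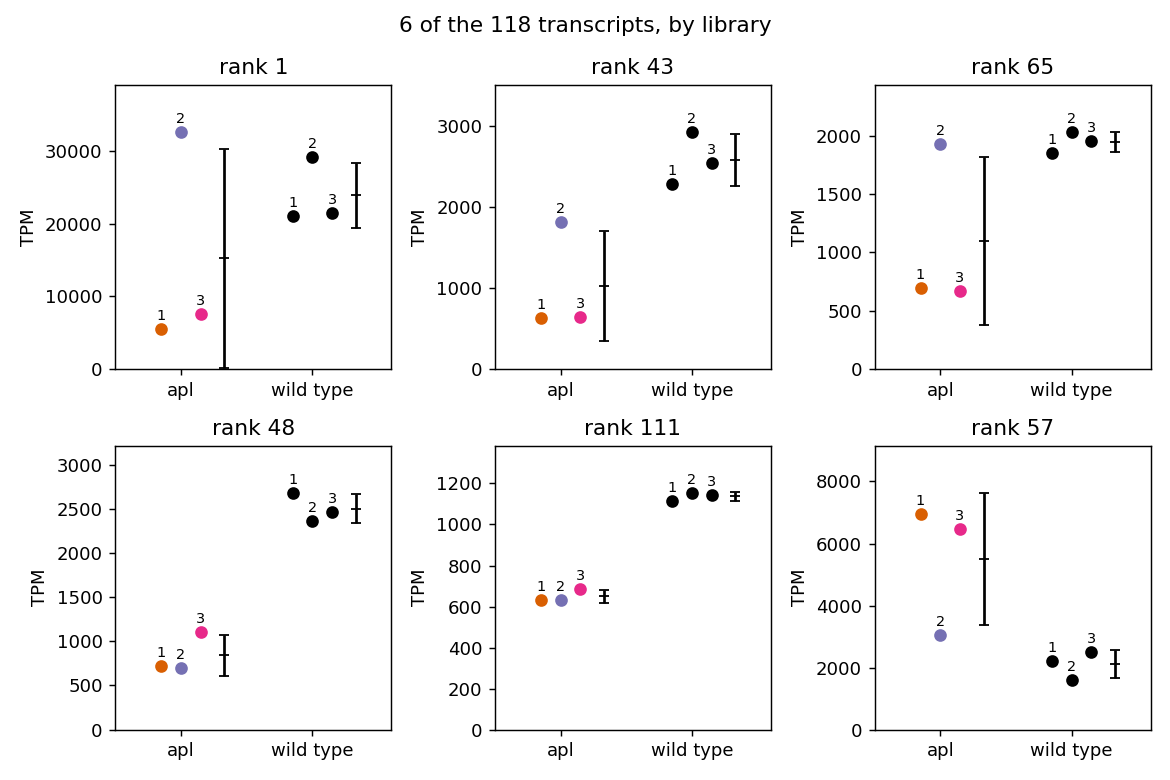
TPM (y axis) of 6 members in apl and wild type libraries. Each dot is a library with its replicate number, and the bar beside each group gives the mean and SD (n = 3). At ranks 1, 43, 65 and 57 apl replicate 2 lies apart from apl replicates 1 and 3, and at ranks 48 and 111 all 3 apl libraries lie below all wild type libraries, with replicate 3 above the other apl libraries at rank 48.

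The largest falls without apl replicate 2 ran through the whole rank order. Zm00001eb149430, ranked 43, had 630.5, 1814 and 636 TPM in apl replicates 1, 2 and 3, and 2287, 2922 and 2542 TPM in wild type. All 3 apl values were below all wild type values, with replicate 2 nearest to them. On the log2 scale it fell, with a change of -2.02 ± 0.12 without apl replicate 2 (SE, limma adjusted p = 0.000859) and -1.51 ± 0.43 with it (adjusted p = 0.162). The gene ranked 65 had 698, 1933 and 666 TPM in the apl libraries, against 1859, 2033 and 1956 TPM in wild type. Replicate 2 was inside the wild type range here, and replicates 1 and 3 stood at 0.358 and 0.342 of the wild type mean. The gene ranked 25 had 1674, 4831 and 1624 TPM in the apl libraries and 4229, 4334 and 3920 TPM in wild type, so that replicate 2 was above all wild type libraries. The gene ranked 47 had 588, 2668 and 661 TPM in the apl libraries and 2365, 3509 and 1695 TPM in wild type, the widest wild type spread of the list (coefficient of variation 36.4%).

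Other members that fell without apl replicate 2 had the same arrangement of libraries in part. The gene ranked 30 had 1646, 3156 and 1433 TPM in apl and 3579, 3883 and 3719 TPM in wild type, below in all 3 apl libraries. The gene ranked 42 had 946, 2665 and 1236 TPM in apl and 2815, 2186 and 2866 TPM in wild type, with apl replicate 2 inside the range. The gene ranked 117 had 495, 959 and 405 TPM in apl and 1060, 1063 and 1047 TPM in wild type. Its apl replicate 3 value was the lowest of any member in any library. In all, 16 of the 51 members that fell did so by more than 2-fold on the log2 scale, and the median log2 change of the 51 was -0.68. Among the 2999 tested genes called lower in that fit 25.1% passed 2-fold and the median was -0.69.

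The members that rose without apl replicate 2 numbered 22, with a median log2 change of 0.58, and 3 of them passed 2-fold. Among the 4141 tested genes called higher in that fit the median was 0.92, and 44.6% passed 2-fold. Zm00001eb357740, ranked 57, had 6966, 3048 and 6469 TPM in apl replicates 1, 2 and 3, and 2214, 1611 and 2514 TPM in wild type. Every apl library was above every wild type library, and the gene reached place 7 of all genes in apl replicates 1 and 3. The log2 change of this gene was 1.69 ± 0.19 without apl replicate 2 (SE, limma adjusted p = 0.0031) and 1.31 ± 0.36 with it (adjusted p = 0.155). Zm00001eb324240, ranked 53, had 5179, 2780 and 4482 TPM in apl and 2199, 1978 and 2276 TPM in wild type. The groups were again separate, with a log2 change of 1.17 ± 0.11 without apl replicate 2 (SE, limma adjusted p = 0.00179) and 0.90 ± 0.25 with it (adjusted p = 0.158). The gene ranked 66 had 4283, 2217 and 3892 TPM in apl and 2033, 1673 and 2083 TPM in wild type. In these 3 genes apl replicate 2 lay between the wild type range and the other apl libraries.

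Members of higher rank were also above wild type in apl. The gene ranked 37 had 6835, 3605 and 5755 TPM in apl, against 3349, 3023 and 3328 TPM in wild type, and climbed to places 9 and 13 of all genes in apl replicates 1 and 3. The gene ranked 19 had 6205, 7103 and 5985 TPM in apl and 4648, 4419 and 4827 TPM in wild type. It was the one member above in all 3 apl libraries with apl replicate 2 the farthest out, and it rose without that replicate (log2 change 0.40 ± 0.08, SE, limma adjusted p = 0.0159) but missed the threshold with it (0.47 ± 0.14, adjusted p = 0.178). The gene ranked 11 had 8405, 7064 and 7130 TPM in apl and 6000.3, 4956 and 6179 TPM in wild type. Its groups did not overlap, but it missed the threshold both without apl replicate 2 (limma adjusted p = 0.0502) and with it (0.258).

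**Figure D5:**
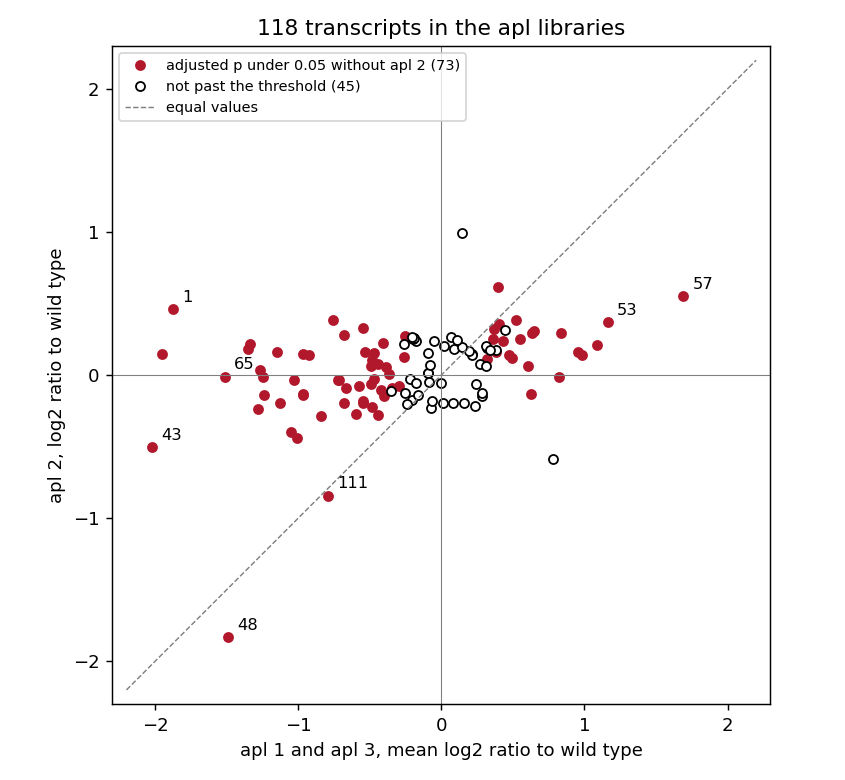
Log2 ratio to wild type of the 118 members in apl replicate 2 (y axis) against the mean of apl replicates 1 and 3 (x axis). Each dot is a gene, filled where limma's adjusted p was under 0.05 without apl replicate 2 (73 genes), numbers are wild type ranks, and the dashed line marks equal values. Most dots lie near 0 on the y axis, and ranks 48 and 111 lie below 0 on both axes.

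In 19 of 118 members all 3 apl values were within 1.2-fold of the wild type mean, where 13.3% of tested genes were, and 17 of the 19 were in ranks 11 to 118. Taken singly, 33, 91 and 34 members were within 1.2-fold in apl replicates 1, 2 and 3, where 33%, 50.9% and 31% of tested genes were. The share of members was thus near the background in replicates 1 and 3. The strictest case, with all 3 apl values inside the wild type range, was the gene ranked 54 alone, where 4.25% of tested genes were. It had 2163, 2038 and 2079 TPM in apl and 2156, 1966 and 2256 TPM in wild type. The gene ranked 2 in wild type became the most abundant of all in apl replicates 1 and 3, with 13278, 9448 and 12528 TPM in apl and 10845, 9927 and 12261 TPM in wild type. It was above the wild type range in apl replicates 1 and 3 and below it in replicate 2. It missed the threshold without apl replicate 2 (limma adjusted p = 0.164).

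In a few members 1 apl library stood apart from all the others. The gene ranked 92 had 1462, 2762 and 1609 TPM in apl and 1279, 1500 and 1387 TPM in wild type, so that replicate 2 stood at 1.99 times the wild type mean. The gene ranked 56 had 2500.0, 1393 and 5195 TPM in apl and 1797, 2100 and 2443 TPM in wild type. Its apl replicate 3 value was more than 2-fold above all the others, and replicate 2 was below the wild type range. Neither gene passed the threshold in the fit of all 6 libraries or without apl replicate 2.

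The library farthest from wild type was most often apl replicate 1 among the higher members and apl replicate 3 among the lower ones. Of the 36 members above wild type in replicates 1 and 3, replicate 1 was the farthest out in 31 and replicate 3 in 4. Of the 64 below in both, replicate 3 was the lowest in 39, replicate 1 in 23 and replicate 2 in 2. Replicate 2 lay nearer to wild type than both others, or on its other side, in 32 of the 36 and 60 of the 64. In 34 of the 36 members that were above in apl replicates 1 and 3, wild type replicate 2 was the lowest wild type library. It was so for 36.9% of the 7356 tested genes with that pattern. At the median, however, this library was low over all 118 members. Its median log2 ratio to wild type was -0.05 over members and 0.01 over all tested genes. How often it was the lowest over all members was not counted. In the 64 members below in both, the highest wild type library was replicate 2 in 33 and replicate 3 in 27, where these were 42.2% and 27.8% of the 5466 tested genes with that pattern.

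The limit of 1000 TPM was crossed in both directions. All 3 apl libraries kept 86 members at or above it, and single apl libraries kept 90, 111 and 91. Under 1000 TPM in both apl replicates 1 and 3 were 23 members, the highest of them ranked 43, and 17 of these 23 were at or above 1000 TPM in apl replicate 2. The members under it in all 3 apl libraries numbered 6. All members reached the limit in every wild type library by rule, so they could only fall under it. Outside the list, 17 genes reached 1000 TPM in both apl replicates 1 and 3. Some of them had already reached it in 1 or 2 wild type libraries. The most abundant of the 17 had 4564, 510.2 and 4108 TPM in apl replicates 1, 2 and 3, and 660.3, 224 and 731 TPM in wild type. With them, 103 genes reached the limit in both apl replicates 1 and 3. A single gene outside the list reached it in all 3 apl libraries, with 1095, 1064 and 1053 TPM in apl and 977, 1054 and 1047 TPM in wild type.

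A choice that leaves out a wild type library gives a view in which that library did not select the members. The other wild type libraries still did, so choice on high wild type values is not removed. Chosen on wild type replicates 2 and 3, on 1 and 3, or on 1 and 2, the list held 121, 121 or 119 genes, each time including all 118. Set against the wild type library left out, the median log2 ratio of these genes was -0.13, 0.08 and -0.22 in apl replicates 1, 2 and 3 against wild type replicate 1. It was -0.06, 0.08 and -0.15 against wild type replicate 2, and -0.16, 0.00 and -0.30 against wild type replicate 3. Apl replicates 1 and 3 were below each held-out wild type library at the median and replicate 2 was at or above it. The wild type libraries that made the choice were themselves 0.00, 0.09 and -0.08 from the one left out.

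The members were scattered over the identifier list. In 3 pairs the members held consecutive places, and 7 pairs, with 13 members, lay within 10 places. The consecutive pairs joined ranks 63 and 84, 18 and 116, and 3 and 105, and in each pair both log2 changes without apl replicate 2 were negative. Of the 7 pairs, which include these 3, 6 had changes of the same sign. In that fit 72 of the 118 members had a negative change, so equal signs are common among members, and their agreement was not tested. Whether reads were shared between near-identical copies was not tested, and the separate values of such neighbours are uncertain to that extent.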

How the data were processed

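Leaf mRNA was measured in 3 apl and 3 wild type libraries. The authors deposited TPM values, 1 column per library. Trimmomatic 0.36, HISAT2, RSEM and DESeq2 are named, per the submitters' processing notes, without roles. Genome build and annotation: not given in the sources used here. Such values hold no depth, so no counting interval is given. Listed genes summed to 930426 to 959685 TPM per library, and shares are of these sums.

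Identifiers were looked up in a RefSeq table of maize B73 (Zm-B73-REFERENCE-NAM-5.0) with 0 matches, so lists of named genes and cell type markers were not applied. Genes averaging 1 TPM or more were fitted on log2(TPM + 1) with limma 3.58.1 in R 4.3.3 (genotype term, mean-variance trend, two-sided, Benjamini-Hochberg over all tested genes, threshold 0.05). A fold change on this scale slightly understates the TPM ratio. The fit was also run on simulated data with independent noise and no library that stands apart. That run cannot speak to the effect of apl replicate 2. A library is above or below wild type when it lies outside all 3 wild type values. Identifiers are printed for the 2 members with the largest rise and the 2 with the largest fall over all 6 libraries among members with separate groups. Others go by rank, and those shown were picked after their values were seen. Between 0.372% and 1.14% of tested genes had equal TPM in any pair of libraries, so no library was a copy. The members and lists were chosen with earlier results of these data known. Alternatives changed pseudocount, filter, scaling, variance model, replicate block, libraries and the rule for members. Limits of 1.2-fold, the share without the gene ranked 1 and ranges without a wild type library were added after the data were seen.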

Additional observations from a re-analysis of the deposited data

How the results depend on the processing

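The count of members past the threshold rested on apl replicate 2 and on small margins. Against 2 (0 higher, 2 lower), no filter and the replicate block gave 0, quantile normalization 1 (lower), and array weights 58 (15 higher, 43 lower). With single libraries left out there were 0 to 73 in all, 0 to 22 higher and 0 to 51 lower, with the highest values without apl replicate 2. Without apl replicate 2, median-of-ratios rescaling gave 64 (11 and 53) and quantile normalization 73 (23 and 50). Members at 2000 TPM (51 genes) or by the mean over 6 libraries gave 1, lower. At 500 TPM there were 223 members. Pseudocounts, a filter at 5 TPM, median-of-ratios rescaling, no trend and a 1.5-fold limit changed none of these counts. Deviations of same-numbered apl and wild type libraries correlated at -0.04, 0.05 and -0.02, and those of other pairs at -0.06 to 0.10. Such values cannot show whether a replicate number stands for a shared harvest or batch, and this was not tested.

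The share difference of -0.56 points was -1.50 at 500 TPM, -1.06 at 2000 TPM and 0.34 without the gene ranked 1. As a share of the nominal TPM total rather than the listed sum it was -0.94. By the mean over 6 libraries, a rule that also uses the apl values, it was 0.88. With members chosen on the other wild type libraries it was -0.41, 0.00043 and -1.34 against wild type replicates 1, 2 and 3 alone. Leaving out a library gave -2.28 (without apl replicate 2) to 0.66 (without apl replicate 3). Counts of members outside the wild type range stayed within 1.5 times under both rescalings and without any wild type library. Counts over all tested genes moved too, so the distance between members and tested genes depended on scaling. After quantile normalization 6867 tested genes were above in apl replicate 1, against 8876 as deposited, and 9697 below, against 7383. In apl replicate 2, 7299 were above, against 5746. At 1.5-fold of the wild type mean the member counts were 14, 2 and 9 above and 29, 3 and 31 below in apl replicates 1, 2 and 3. Of the 4 members printed with identifiers, those ranked 57, 53 and 43 passed the threshold in 4 of 17 alternatives of the fit each and that ranked 48 in 11. The causes were not tested. Unknown depth limits the precision of single values.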
